A study of Mus musculus with 6 samples.

Results

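The transcripts described here belong to 50 genes of mitosis and chromosome segregation, the machinery that condenses, attaches and separates the chromosomes and then divides the cell. The members were listed by symbol, and each of the 50 was found among the 49328 genes of the deposited expression table. RNA came from cells labelled as bone marrow mesenchymal stromal cells (MSCs) of CB6F1 mice with aGVHD. That is the usual short form of acute graft-versus-host disease, a complication of transplantation. The cells were released by digestion of unfractionated marrow and grown in DMEM with FBS. Macrophage markers summed to more than stromal markers in all 6 libraries, as given below. In vitro, the cells of 3 libraries received a compound known only as R (0.5 um, the unit as labelled), and those of the other 3 its vehicle, DMSO. Both groups therefore share strain, disease and culture, and no group of healthy mice or untreated cells enters here. The sources used here do not give the mice's age or number, the duration of treatment, the identity of R or whether each replicate was its own animal or culture. The p-values therefore measure only the spread between these libraries, which may be technical.

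Cells entering division raise a shared group of transcripts late in the cell cycle, in G2 and mitosis. Cyclin A and cyclin B activate the kinase CDK1, condensin compacts the chromosomes, and kinetochores tie them to the spindle. The spindle checkpoint holds the anaphase-promoting complex (APC/C) in check until every chromosome is attached, after which cohesion is cut and the cell divides. Because these transcripts are made mainly by dividing cells, their level in a bulk RNA sample follows both the number of such cells and the amount of RNA in each, and fewer cells of a type and less RNA per cell cannot be told apart here.

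Promoters of such genes are known for a short element called CHR (cell cycle genes homology region, read here as TTTGAA or TTCGAA) and for CCAAT boxes, which the factor NF-Y binds. Promoter windows of 300 bases (250 before the start and 50 from it on) were taken from RefSeq on GRCm38.p6, and 40 of the 50 genes had at least 1 window. Aurkb, Ccna2, Cdc25c, Foxm1, Incenp, Kif20a, Lmnb1, Smc4, Spc24 and Tpx2 were not matched. Searched on both strands, a CHR match was present in 32 of the 40 genes (80%), against 21.7% of all 27025 genes with a window. A CCAAT match was present in 31 of the 40 (77.5%), against 41.1% of all genes, and both together in 29 (72.5%), against 8.61%. Counted by window, 81.4% of 43 member windows and 19.2% of all 32851 windows held a CHR match, and 79.1% and 37.4% a CCAAT match. The letters of the 2 elements can overlap at their ends, and they did not in the windows shown. Such a match is a description of the letters and not a site or a cause.

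The windows of 4 genes are shown because they span the results: Top2a and Bub1 fell with R, Ccnb1 fell and its window held no CHR match, and Bub3 had nearly equal means in both groups with both elements in its window. Each is written 5′ to 3′ on the gene's own strand, with matches to either element in capitals. They lie at chr11:99024140-99024439 (minus strand) for Top2a, chr2:127831810-127832109 (minus strand) for Bub1, chr13:100786437-100786736 (minus strand) for Ccnb1 and chr7:131560120-131560419 (plus strand) for Bub3.
Top2a: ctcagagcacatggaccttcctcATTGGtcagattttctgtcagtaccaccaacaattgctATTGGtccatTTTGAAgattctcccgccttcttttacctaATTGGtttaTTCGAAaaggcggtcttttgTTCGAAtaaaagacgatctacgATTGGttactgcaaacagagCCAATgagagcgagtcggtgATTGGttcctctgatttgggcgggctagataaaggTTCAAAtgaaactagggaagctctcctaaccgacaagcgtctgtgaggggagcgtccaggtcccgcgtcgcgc
Bub1: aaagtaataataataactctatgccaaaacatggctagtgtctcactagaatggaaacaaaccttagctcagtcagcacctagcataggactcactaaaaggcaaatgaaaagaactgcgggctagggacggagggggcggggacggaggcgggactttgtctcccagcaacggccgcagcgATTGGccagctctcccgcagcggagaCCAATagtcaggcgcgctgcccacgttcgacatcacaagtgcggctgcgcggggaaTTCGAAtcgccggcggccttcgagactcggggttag
Ccnb1: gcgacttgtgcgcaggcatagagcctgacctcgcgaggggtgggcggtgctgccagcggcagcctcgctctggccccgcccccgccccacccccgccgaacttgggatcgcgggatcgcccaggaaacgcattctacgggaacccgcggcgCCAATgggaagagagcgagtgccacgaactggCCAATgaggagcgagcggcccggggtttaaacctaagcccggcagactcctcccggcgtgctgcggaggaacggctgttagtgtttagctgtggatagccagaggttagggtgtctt
Bub3: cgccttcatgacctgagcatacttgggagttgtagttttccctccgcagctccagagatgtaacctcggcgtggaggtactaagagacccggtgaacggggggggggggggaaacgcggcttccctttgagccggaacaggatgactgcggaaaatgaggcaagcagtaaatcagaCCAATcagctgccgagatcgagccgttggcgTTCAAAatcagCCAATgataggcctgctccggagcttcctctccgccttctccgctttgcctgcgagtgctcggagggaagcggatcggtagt
The Top2a window held 4 CHR and 6 CCAAT matches. In that of Bub1 the CHR match began at base 15 after the start, with CCAAT matches at -68 and -42. In Ccnb1 the CCAAT matches began at -99 and -67. The Bub3 window had a CHR match at -43 between CCAAT matches at -74 and -32.

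The values are FPKM, fragment counts scaled to gene length and to library size. Library depth, as estimated, lay between 17050000 and 21750000 reads. At that depth a member had 142 (Spc24) to 4849 reads (Top2a) in a library, with a median of 742, so that counting error alone was about 8.39% at the lowest and 1.44% at the highest. All 50 members passed the filter on low values (1 FPKM or more in 3 or more libraries), as did 11862 genes in all. Values are listed for replicates 1, 2 and 3 in that order, means carry the SD with n = 3, and log2 changes give R relative to vehicle after adding 1 to each FPKM, with the moderated standard error (SE). That scale makes the changes of low genes look smaller.

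Mitotic transcripts were lower in R as a group, by modest amounts. Of the 50 members 13 fell and 0 rose at an adjusted p under 0.05 in limma, and 37 did not pass. That was 26% of the members, where 4.43% of all tested genes were called lower and 2.39% higher. The change was negative in 49 of 50 (98%), against 50.7% of all tested genes. The median change was -0.39, beside -0.004 for all tested genes, whose quartiles were -0.16 and 0.15. Changes of single members ran from -0.78 (Bub1) to 0.0038 (Bub3). At an unadjusted p under 0.05, 37 members were lower, or 74%, against a background of 12.6%, and 0 were higher, against 11.4%. In 36 members (72%) each R library lay below each vehicle library, as in 15.5% of all tested genes, and in 0 members each R library lay above, as in 13.9%. The genes share the same 6 libraries and are not independent of one another. The list was also chosen with earlier results of these data known. Its shares beside those of all tested genes are therefore a description and not a test. The number called was 3 (Top2a, Incenp and Smc4) without a filter on low values, which raised the genes tested to 25575, and 9 after the libraries were set to equal medians.

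**Figure D1:**
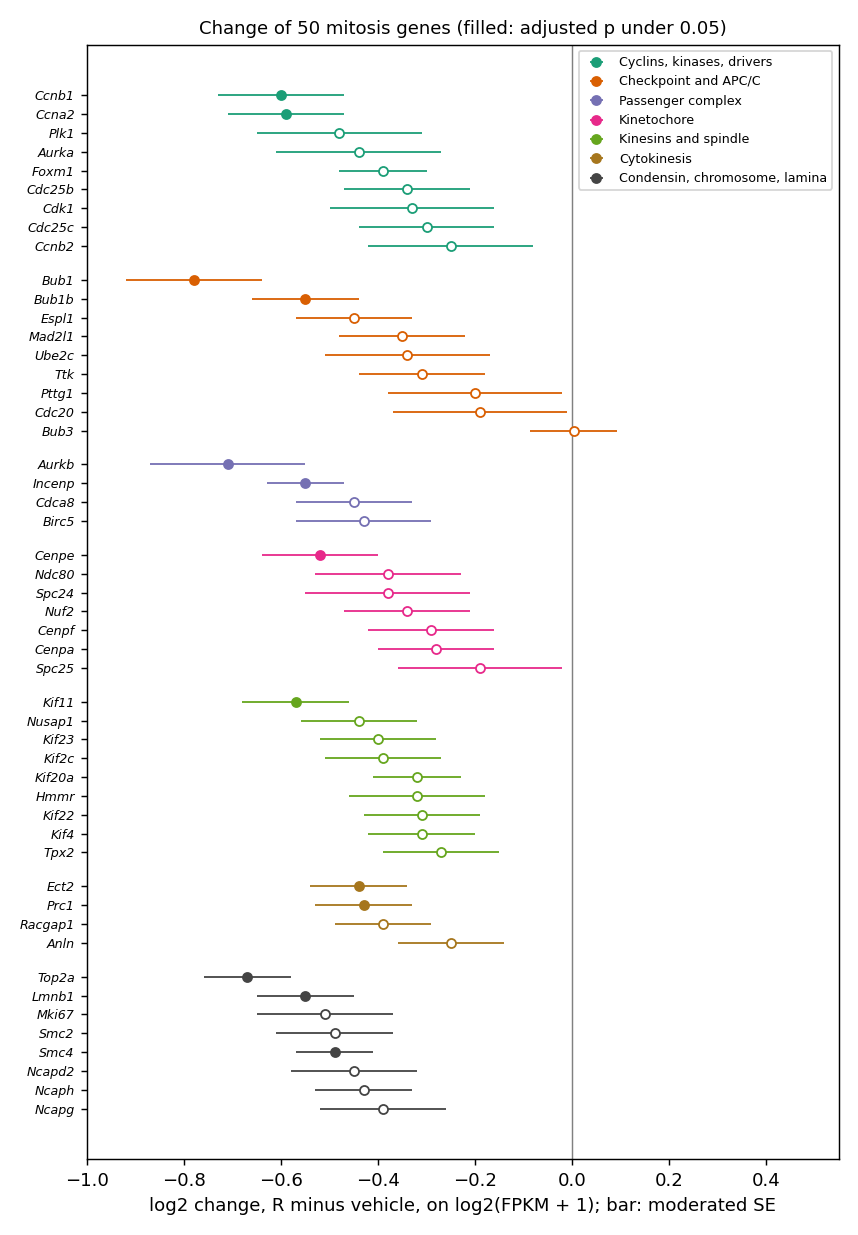
Change of each of the 50 mitosis genes, grouped by function. The horizontal axis is the log2 change, R minus vehicle, on log2(FPKM + 1). Points are limma estimates, bars their moderated SE, and filled points passed an adjusted p of 0.05. All points but that of Bub3 (0.0038) lie left of 0, and the lowest is Bub1 at -0.78.

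Among the cyclins, kinases and drivers of mitotic entry, 2 of 9 fell (4.43% of all tested genes did), and the class median was -0.39. Ccna2 encodes cyclin A2, which acts from S phase to early mitosis (GRCm38 chromosome 3, 36564865 to 36572150). Its values were 8.4, 10.4 and 10.4 FPKM in R and 14.5, 14 and 16.9 FPKM in vehicle (means 9.72 ± 1.14 FPKM in R and 15.1 ± 1.57 FPKM in vehicle; log2 change -0.59, SE 0.12, adjusted p = 0.03). Ccnb1, the cyclin B1 partner of CDK1 (chromosome 13, 100778650 to 100786570), had 6.78, 9.69 and 8.82 FPKM in R and 12.9, 12.8 and 13.9 FPKM in vehicle (log2 change -0.6, SE 0.13, adjusted p = 0.038). For both cyclins the highest R library stayed below the lowest vehicle library, and R replicate 1 was the lowest of all. The forkhead factor Foxm1, which activates many G2/M genes, had 6.14, 7.32 and 7.04 FPKM in R and 9.42, 9.07 and 9.17 FPKM in vehicle. Its groups did not overlap either, but its adjusted p of 0.05003 was just over the threshold, and it passed with a pseudocount of 0.1 or a filter at 5 FPKM. Foxm1 passed in those 2 of the 14 alternatives only, and its adjusted p reached 0.19.

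The other members of this class did not pass. Ccnb2, the second B-type cyclin and the most abundant member of the class, had 19.8, 31.9 and 23.3 FPKM in R and 26.9, 28.7 and 32.5 FPKM in vehicle. R replicate 2 was above vehicle replicates 1 and 2 there, and the change was -0.25, SE 0.17. Plk1, the polo-like kinase of centrosome maturation and spindle assembly, had 13.7, 22.7 and 17.5 FPKM in R and 24.5, 22.7 and 27.7 FPKM in vehicle (log2 change -0.48, SE 0.17, adjusted p = 0.16). Aurka, the centrosomal Aurora kinase, stood at 72.2% of its vehicle mean, Cdk1 at 78.9%, and the CDK1-activating phosphatases Cdc25b and Cdc25c at 78.3% and 75.5%. Of these 4 genes only Cdc25b had groups that did not overlap. The calls of both cyclins ended when single libraries were left out: that of Ccna2 without any of the 6 (adjusted p up to 0.096) and that of Ccnb1 without each library other than R replicate 2 (adjusted p up to 0.13). About 12.5% of the exon bases of Ccna2 and 12.7% of those of Cdc25c overlap a gene on the opposite strand, as do 22.8% of those of Ube2c, 15.1% of those of Kif4, 13.4% of those of Ncapg and 11.1% of those of Prc1 in the classes that follow, and since the strandedness of the libraries is not given, reads of such pairs cannot be told apart.

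In the checkpoint and APC/C class 2 of 9 fell (4.43% of all tested genes did), both of them checkpoint components, and the class median was -0.34. Bub1, the kinetochore kinase that recruits the checkpoint (chromosome 2, 127801122 to 127831865), had 3.97, 5.56 and 4.24 FPKM in R and 8.69, 7.4 and 9.61 FPKM in vehicle. Its R mean was 53.6% of its vehicle mean, the lowest such share among the 50 (log2 change -0.78, SE 0.14, adjusted p = 0.023). Bub1b encodes BUBR1, a component of the inhibitor of the APC/C (chromosome 2, 118598211 to 118641591), and had 7.41, 9.47 and 9.11 FPKM in R and 13.6, 12.6 and 13.1 FPKM in vehicle (log2 change -0.55, SE 0.11, adjusted p = 0.028). In both genes every R library was below every vehicle library. Espl1, or separase, the protease that cuts cohesin at anaphase, had 2.69, 3.68 and 3.41 FPKM in R and 5.07, 4.29 and 5.04 FPKM in vehicle and did not pass (log2 change -0.45, SE 0.12, adjusted p = 0.078).

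Bub3, which partners both BUB kinases, was the exception among the 50. It had 13.4, 14.7 and 12.9 FPKM in R and 14.3, 12.8 and 13.8 FPKM in vehicle, with means of 13.7 ± 0.937 FPKM in R and 13.6 ± 0.739 FPKM in vehicle, and the groups overlapped throughout. Its change of 0.0038 (SE 0.09) was negative without R replicate 2 (-0.047) or vehicle replicate 2 (-0.036). Cdc20, the activator of the APC/C, had 22.7, 31.4 and 19 FPKM in R and 26, 25.4 and 31 FPKM in vehicle, and R replicate 2 was the highest of the 6 libraries. Ube2c, the ubiquitin-conjugating enzyme of the APC/C, had 13.8, 20.7 and 13.7 FPKM in R and 19.9, 18.5 and 22.4 FPKM in vehicle. Pttg1, the securin that restrains separase, was likewise highest in R replicate 2 (7.1, 9.84 and 5.45 FPKM in R, 8.2, 8.78 and 8.52 FPKM in vehicle). Of the other checkpoint genes, Mad2l1, whose product binds CDC20 in the checkpoint, stood at 74.7% and Ttk, the MPS1 kinase, at 74.2% of the vehicle mean, and neither passed. The call of Bub1 held without R replicate 2 or vehicle replicate 2 and ended without each other library (adjusted p up to 0.092), and that of Bub1b held only without R replicate 2 (adjusted p up to 0.12).

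The chromosomal passenger complex corrects faulty attachments and later guides cleavage. It had R libraries below vehicle libraries in all 4 subunits (15.5% of all tested genes), and 2 of the 4 fell (4.43%). Incenp, its scaffold and the most abundant of the 50 genes (chromosome 19, 9872296 to 9899551), had 27.4, 30.2 and 27.4 FPKM in R and 44.5, 40.3 and 41.5 FPKM in vehicle (means 28.3 ± 1.65 FPKM in R and 42.1 ± 2.15 FPKM in vehicle; log2 change -0.55, SE 0.08, adjusted p = 0.012). The kinase subunit Aurkb had 8.07, 13.2 and 9.5 FPKM in R and 17.5, 15.8 and 18 FPKM in vehicle (log2 change -0.71, SE 0.16, adjusted p = 0.049). Its fall was larger and its spread in R wider than those of Incenp. Cdca8 (borealin) had 5.99, 7.96 and 6.18 FPKM in R and 9.52, 8.99 and 10 FPKM in vehicle (log2 change -0.45, SE 0.12, adjusted p = 0.066). Birc5 (survivin) had 8.23, 11.3 and 7.73 FPKM in R and 12.1, 12.3 and 12.9 FPKM in vehicle (log2 change -0.43, SE 0.14, adjusted p = 0.11). Neither passed with all 6 libraries, and both passed without R replicate 2 (adjusted p = 0.033 and 0.027). Each passed in that 1 alternative of 14 only, with an adjusted p up to 0.21 for Cdca8 and 0.28 for Birc5. The call of Incenp ended without vehicle replicate 1 alone (adjusted p = 0.064). That of Aurkb, at 0.049 close to the threshold, ended without each library other than R replicate 2 (adjusted p up to 0.17) and under 6 of the other alternatives, among them a pseudocount of 0.1 (adjusted p = 0.052) and no filter (adjusted p = 0.13).

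**Figure D2:**
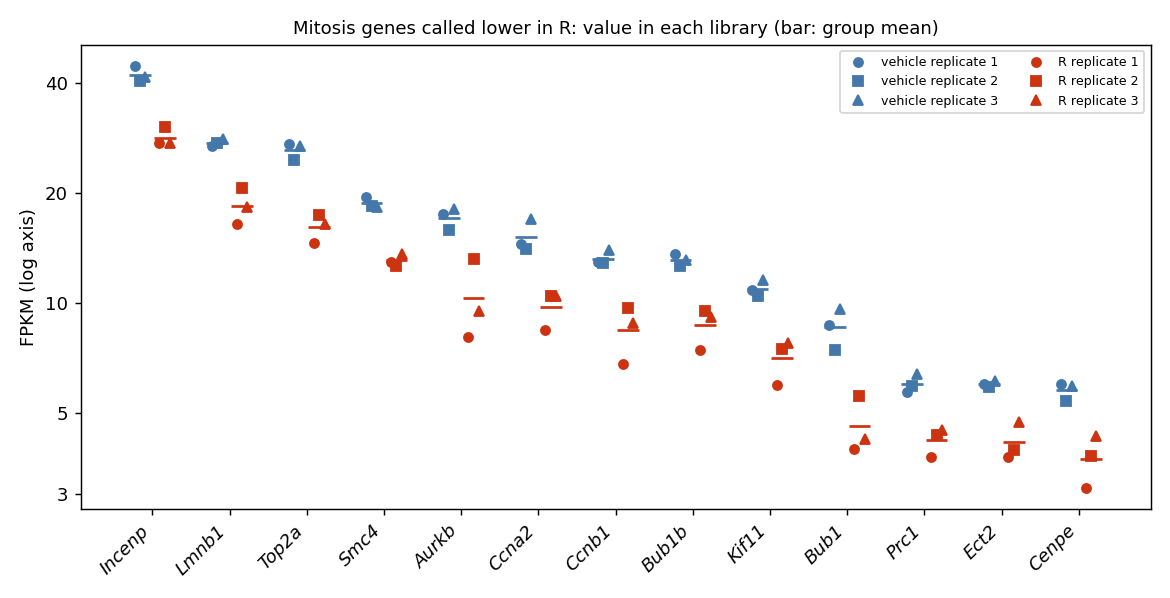
FPKM of the 13 mitosis genes called lower in R, in each library (points) with group means (bars), on a log axis. In each gene the 3 R values lie below the 3 vehicle values, from Incenp (27.4 to 30.2 against 40.3 to 44.5 FPKM) to Cenpe (3.11 to 4.31 against 5.39 to 6 FPKM).

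Kinetochore genes were low in level, and 1 of 7 fell (4.43% of all tested genes did). Cenpe, a kinesin motor of the outer kinetochore (chromosome 3, 135212537 to 135273611), had 3.11, 3.8 and 4.31 FPKM in R and 6, 5.39 and 5.9 FPKM in vehicle (log2 change -0.52, SE 0.12, adjusted p = 0.045). R replicate 3 came closest to the vehicle libraries. In the NDC80 complex, which binds microtubules, Nuf2 had 2.88, 3.74 and 3.18 FPKM in R and 4.09, 3.94 and 5.18 FPKM in vehicle, and Ndc80 had 2.23, 3.24 and 2.02 FPKM in R and 3.44, 3.24 and 3.87 FPKM in vehicle. Both had every R library below every vehicle library, though for Ndc80 R replicate 2 and vehicle replicate 2 were equal to 3 digits, and neither passed (adjusted p = 0.17 for each). The complex's other subunits overlapped between groups: Spc24, which joins the complex to the inner kinetochore, stood at 74% of the vehicle mean, and Spc25 had 4.76, 7.76 and 5.14 FPKM in R and 6.89, 6.04 and 7.32 FPKM in vehicle, with R replicate 2 the highest of all. Cenpa, the histone H3 variant that marks centromeres, had 6.97, 8.04 and 6.19 FPKM in R and 9.69, 7.91 and 8.78 FPKM in vehicle. Cenpf, a large kinetochore protein, with the longest summed exons of the 50 (15433 bases) and the lowest level, had 1.14, 1.33 and 1.71 FPKM in R and 1.94, 1.94 and 1.84 FPKM in vehicle (log2 change -0.29, SE 0.13). The call of Cenpe held without R replicate 3 and ended without each other library (adjusted p up to 0.18), and it also ended with equal medians and with quantile normalization.

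All 9 kinesins and spindle proteins were negative, and 1 fell (50.7% and 4.43% of all tested genes). Kif11 (Eg5), the motor that pushes spindle poles apart (chromosome 19, 37376403 to 37421859), had 5.94, 7.45 and 7.74 FPKM in R and 10.8, 10.4 and 11.5 FPKM in vehicle (log2 change -0.57, SE 0.11, adjusted p = 0.028). Kif20a, a motor of the central spindle, had 7.26, 8.33 and 7.76 FPKM in R and 9.48, 10.1 and 10.4 FPKM in vehicle (log2 change -0.32, SE 0.09, adjusted p = 0.075), but 29.3% of its exon bases overlap Cdc23 on the opposite strand. Nusap1, which bundles microtubules near chromosomes, had 4.28, 5.44 and 4.2 FPKM in R and 7.04, 5.86 and 7.02 FPKM in vehicle (log2 change -0.44, SE 0.12, adjusted p = 0.078). In 8 of these 9 genes the groups did not overlap, with R below vehicle (15.5% of all tested genes). Tpx2, the spindle assembly factor that activates Aurora A, was the exception: it had 12.5, 16.7 and 13 FPKM in R and 16.7, 15.9 and 18.4 FPKM in vehicle. The centralspindlin motor Kif23, the microtubule depolymerase Kif2c, the spindle protein Hmmr and the chromosome-bound motors Kif22 and Kif4 stood between 72.7% (Kif23) and 78.2% (Kif22) of their vehicle means, and none passed. The call of Kif11 held without R replicate 3 and ended without each other library (adjusted p up to 0.11).

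Of the 4 cytokinesis genes 2 fell (4.43% of all tested genes), with every R library below every vehicle library in each of the 4 (15.5%). Prc1, which bundles the central spindle (chromosome 7, 80294450 to 80316259), had 3.77, 4.35 and 4.49 FPKM in R and 5.7, 5.9 and 6.39 FPKM in vehicle (log2 change -0.43, SE 0.1, adjusted p = 0.046). Ect2, the exchange factor that activates RhoA at the cleavage site (chromosome 3, 27097222 to 27153878), had 3.79, 3.95 and 4.72 FPKM in R and 5.98, 5.87 and 6.12 FPKM in vehicle (log2 change -0.44, SE 0.1, adjusted p = 0.044). The 3 vehicle libraries of Ect2 were close together, and R replicate 3 was the R library nearest to them. Racgap1, the partner of KIF23 in centralspindlin, had 8.48, 10.5 and 10 FPKM in R and 12.6, 12.5 and 13.6 FPKM in vehicle and did not pass (adjusted p = 0.067). Anln, the actin-binding scaffold of the contractile ring, came nearest to overlap, with 4.97, 5.68 and 6.45 FPKM in R and 6.9, 6.47 and 7.43 FPKM in vehicle (adjusted p = 0.22). The call of Prc1 ended without any single library (adjusted p up to 0.15), and that of Ect2 held only without R replicate 3 (adjusted p up to 0.16). Both ended with equal medians, and that of Prc1 also with quantile normalization.

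Genes of chromosome structure and the nuclear lamina had a median of -0.49, and 3 of 8 fell (4.43% of all tested genes did). Every R library lay below every vehicle library in all 8 (15.5% of all tested genes). Top2a, the topoisomerase that untangles sister chromatids (chromosome 11, 98992943 to 99024189), had 14.6, 17.4 and 16.4 FPKM in R and 27.2, 24.6 and 26.9 FPKM in vehicle (means 16.1 ± 1.42 FPKM in R and 26.2 ± 1.43 FPKM in vehicle; log2 change -0.67, SE 0.09, adjusted p = 0.0088). It was the only member called under each of the 14 alternatives tried (adjusted p at most 0.049). Smc4, a core ATPase of condensin (chromosome 3, 69004738 to 69034623), had 12.9, 12.6 and 13.6 FPKM in R and 19.4, 18.4 and 18.3 FPKM in vehicle (log2 change -0.49, SE 0.08, adjusted p = 0.015). Its 3 R values were the tightest of the called genes relative to their mean. Lmnb1, the B-type lamin of the nuclear envelope (chromosome 18, 56707813 to 56753424), had 16.4, 20.6 and 18.3 FPKM in R and 26.8, 27.3 and 28.1 FPKM in vehicle (log2 change -0.55, SE 0.1, adjusted p = 0.022).

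The remaining genes of chromosome structure lay at similar shares without passing. Mki67, the coat protein of mitotic chromosomes known as the Ki-67 proliferation marker, had 12.5, 13.1 and 17.6 FPKM in R and 21.6, 19.1 and 21.4 FPKM in vehicle (log2 change -0.51, SE 0.14, adjusted p = 0.074). R replicate 3 stood above the other R libraries, and without it the gene passed (adjusted p = 0.024). Mki67 passed in that 1 alternative of 14 only, and its adjusted p reached 0.24. Among the other condensin subunits, Smc2, the partner of SMC4, had 6.88, 8.01 and 9.66 FPKM in R and 12.2, 11.3 and 11.8 FPKM in vehicle (adjusted p = 0.06), and Ncaph, the kleisin that closes the ring, missed the threshold at an adjusted p of 0.052. The regulatory subunits Ncapd2 and Ncapg stood at 71.8% and 67.6% of their vehicle means. The 5 condensin genes thus had R means of 67.6% (Ncapg, which overlaps Lcorl on the opposite strand) to 72% of vehicle. The call of Smc4 ended without R replicate 1 or vehicle replicate 1 or 2 (adjusted p up to 0.08), and that of Lmnb1 ended without each library other than R replicate 2 (adjusted p up to 0.085).

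Libraries of the R group were not alike in these genes. The median member was 0.53 below the vehicle mean on the log2 scale in R replicate 1, 0.43 below in R replicate 3 and 0.23 below in R replicate 2, while the vehicle libraries were between -0.08 and 0.07. R replicate 1 was the lowest of the 6 libraries in 34 members. R replicate 2 was the highest R library in 39 members and the highest of all 6 in 4. In 49 members R replicates 1 and 3 were both below every vehicle library, and 13 of the 14 overlaps came through R replicate 2 alone. Without R replicate 2 the change was negative in all 50 members and 11 were called. The number called was 2 without R replicate 1, 8 without R replicate 3, 1 without vehicle replicate 1, 3 without vehicle replicate 2 and 3 without vehicle replicate 3, and the median stayed between -0.46 and -0.31 in these 6 fits.

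**Figure D3:**
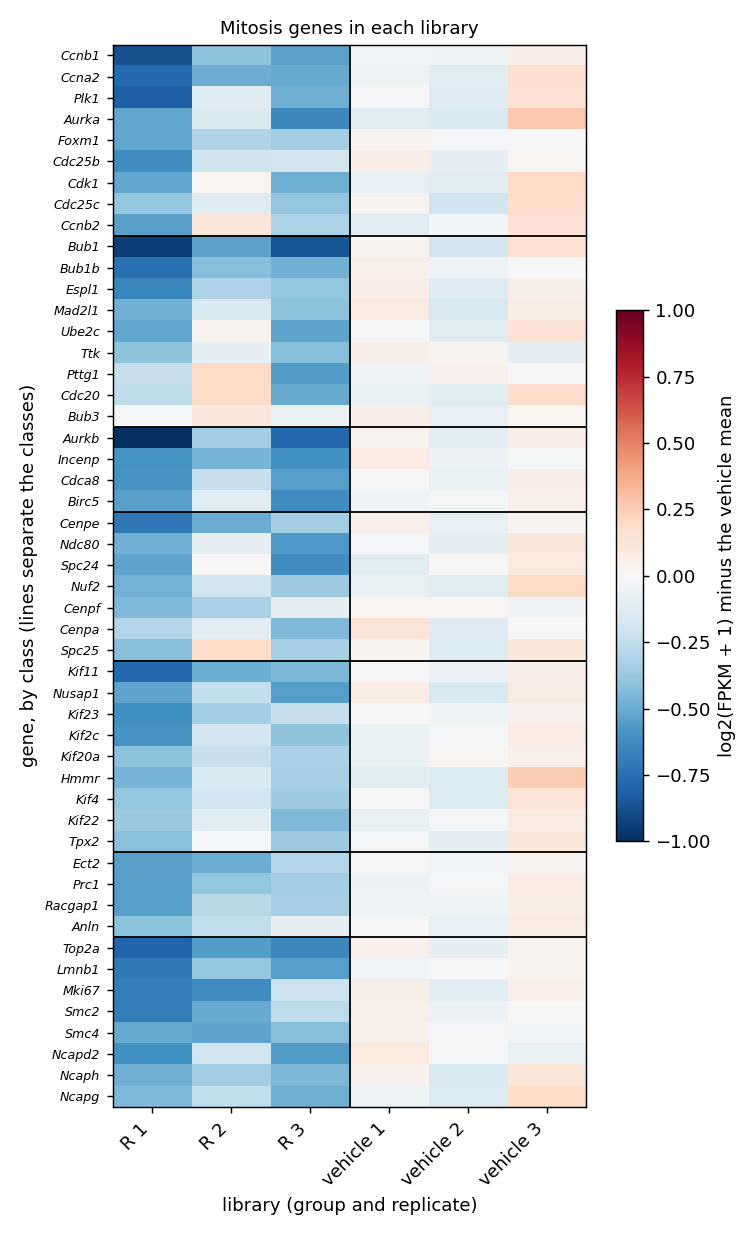
The 50 mitosis genes (rows, by class) in the 6 libraries (columns). Colour is log2(FPKM + 1) minus the vehicle mean of the gene, blue lower and red higher. R replicate 1 holds the lowest value in 34 genes, and R replicate 2 the highest of all 6 in 4 (Bub3, Cdc20, Pttg1 and Spc25).

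Differences among the R libraries went with transcript length, most of all those of R replicate 2 from the others. The 25 members with exons summing to less than the median of 4926 bases were compared between R replicates 2 and 3. Of them 24 were higher in R replicate 2, and the median difference was 0.33 on the log2 scale. Of the 25 longer ones 15 were higher and 10 lower in R replicate 2 than in replicate 3 (median difference 0.08). Across the 50 genes, which share libraries and are not independent, Pearson's r between log2 length and this difference was -0.692 (Spearman's rho -0.622). The same direction held for all 11859 tested genes with a known length (r -0.381, rho -0.526). For R replicate 1 minus R replicate 2 the members gave r 0.658 (rho 0.626), and for R replicate 1 minus R replicate 3 r -0.399 (rho -0.335). Between pairs of vehicle libraries r over the members was 0.168 to 0.379. For R replicate 2 against R replicate 3, the ends of the range were Pttg1 (2000 exon bases, 0.75 higher in R replicate 2) and Mki67 (10061 exon bases, 0.4 lower there). For the change between R and vehicle the coefficients over the members were -0.0727 (r) and -0.0528 (rho). Over all 11859 tested genes with a known length they were -0.0451 (r) and -0.119 (rho). Split at 4926 bases, these genes had median changes of -0.036 (longer) and 0.02 (shorter). The longer members had a median change of -0.39 with 6 called, and the shorter ones a median of -0.39 with 7 called. The groups did not overlap in 21 of the 25 longer members and in 15 of the 25 shorter ones. What made the libraries differ by length was not tested.

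**Figure D4:**
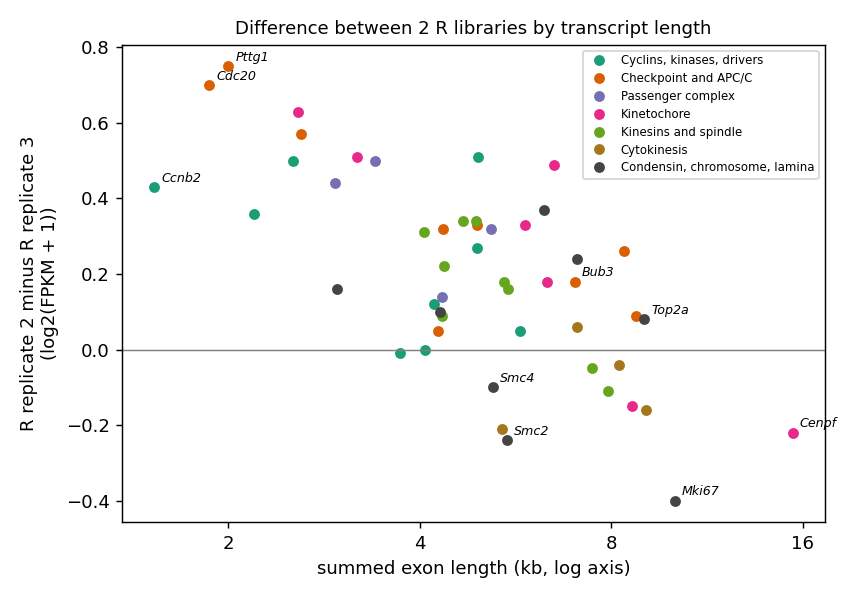
Difference between R replicates 2 and 3 (vertical axis, log2(FPKM + 1)) against summed exon length (horizontal axis, kb, log scale) for the 50 mitosis genes, coloured by class. Short transcripts such as Pttg1 (0.75) and Cdc20 (0.7) lie high and long ones such as Mki67 (-0.4) low.

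Mitotic genes outside the 50 had a smaller median change in the same direction. Of 79 tested further mitotic genes 2 fell and 0 rose, with a median change of -0.25 and negative values in 69. That count of calls is no larger a share than the 4.43% of all tested genes called lower. At an unadjusted p under 0.05, 36 of the 79 were lower and 0 higher (12.6% and 11.4% of all tested genes), and in 41 every R library lay below every vehicle library (15.5%). The calls were Cdca5 (sororin), which protects cohesion (5.79, 6.82 and 5.82 FPKM in R, 9, 8.6 and 10.3 FPKM in vehicle; adjusted p = 0.031), and the kinesin Kif20b (2.35, 2.78 and 2.81 FPKM in R and 4.19, 3.76 and 4.55 FPKM in vehicle; adjusted p = 0.04). Kntc1 of the checkpoint's RZZ complex and Mis18a, which helps load CENP-A, did not pass (log2 changes -0.52 and -0.42, adjusted p = 0.053 and 0.055). A list of cohesin, its loaders and other regulators, and the APC/C with Fzr1 and Ube2s had a median of -0.09. Cells keep most of these outside mitosis as well. In limma 0 of 28 passed, with 2 lower and 0 higher at an unadjusted p under 0.05 (12.6% and 11.4% of all tested genes). Rad21, the cohesin subunit that separase cuts, was the one with the smallest p (28.8, 27.9 and 33.9 FPKM in R, 39, 37.9 and 38.2 FPKM in vehicle; log2 change -0.34, SE 0.09, adjusted p = 0.079), and Anapc5, Wapl and Cdc16 followed with changes of -0.24, -0.25 and 0.17.

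DNA replication genes, which act before mitosis in the cycle, had a median change of -0.35. Of 43 tested 7 fell and 0 rose, where 4.43% and 2.39% of all tested genes did. At an unadjusted p under 0.05, 32 were lower and 1 higher (12.6% and 11.4% of all tested genes). Every R library lay below every vehicle library in 32 and above in 1 (15.5% and 13.9% of all tested genes). Pola1, the catalytic subunit of the primer-making polymerase, had 2.22, 2.12 and 2.13 FPKM in R and 3.79, 3.31 and 3.59 FPKM in vehicle (log2 change -0.53, SE 0.1, adjusted p = 0.023). The helicase subunit Mcm3 had 22.2, 27.8 and 23.9 FPKM in R and 36.9, 34 and 38.1 FPKM in vehicle (adjusted p = 0.027), and the sliding clamp Pcna 91.6, 94.2 and 84.2 FPKM in R and 122, 119 and 120 FPKM in vehicle (adjusted p = 0.031). In each of these 3 the groups did not overlap. Rrm2, the small subunit of ribonucleotide reductase, went the other way without passing: it had 87.1, 144 and 90.5 FPKM in R and 56.8, 57 and 70.3 FPKM in vehicle (log2 change 0.76, SE 0.2, adjusted p = 0.07), and was singled out after its values were seen. Mcm6 and Mcm5 of the same helicase and Uhrf1, which carries DNA methylation through replication, were also called lower (log2 changes -0.37, -0.49 and -0.56). Among the E2F, pocket protein and MuvB regulators the median was -0.14, and 2 of 19 fell and 0 rose (4.43% and 2.39% of all tested genes). E2f2 had 3.65, 3.15 and 3.7 FPKM in R and 6.16, 5.36 and 5.29 FPKM in vehicle (adjusted p = 0.025). E2f8 had 3.22, 3.44 and 3.41 FPKM in R and 5.1, 4.41 and 5.16 FPKM in vehicle (adjusted p = 0.042). E2f6 and Lin54 did not pass, at changes of 0.37 and -0.38. The differences between these lists and the mitosis genes were not tested, and all rest on the same 6 libraries.

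**Figure D5:**
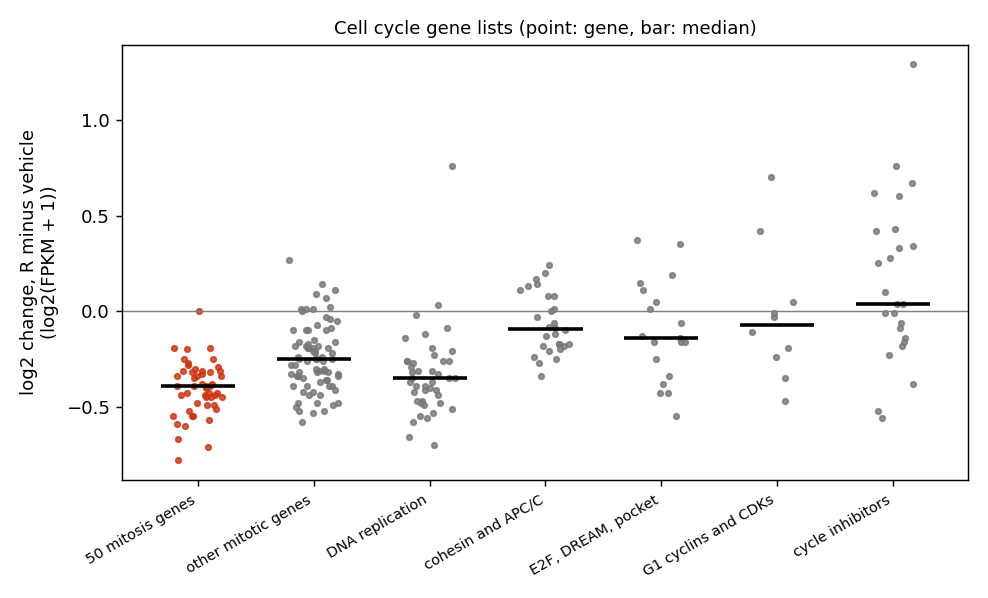
Log2 change, R minus vehicle, of the tested genes of 7 cell cycle lists (points, spread sideways for sight) with list medians (bars). The medians run from -0.39 in the 50 mitosis genes and -0.35 in DNA replication to 0.04 in the cycle inhibitors.

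Markers of stromal and blood cells were set beside these values. Collagen and Pdgfrb transcripts of stromal cells were present (Col1a1 had 523, 327 and 588 FPKM in R and 127, 252 and 263 FPKM in vehicle), but 5 of 20 stromal markers, among them the MSC surface markers Thy1 and Nt5e and the marrow stromal marker Lepr, did not pass the filter. Summed stromal marker FPKM lay between 1850 and 2135 in the R libraries and between 1049 and 1571 in the vehicle libraries. Of the 15 tested stromal markers 1 was called higher in R (Sparc) and 1 lower (Ly6a), where 2.39% and 4.43% of all tested genes were. Their median change was 0.39. At an unadjusted p under 0.05 in limma, 5 were higher and 1 lower (11.4% and 12.6% of all tested genes). Every R library lay above every vehicle library in 5 and below in 1 (13.9% and 15.5% of all tested genes). Macrophage markers summed to far more: the R libraries held between 14111 and 17835 FPKM and the vehicle libraries between 17274 and 23013, ranges that overlap, with Lyz2 the largest. Of the 20 macrophage markers 4 fell and 0 rose, where 4.43% and 2.39% of all tested genes did, and 0 were at 0 throughout. The calls were Msr1, Fcgr1, Itgam and Aif1 (log2 changes -1.43, -2.47, -0.94 and -1.55), and the median change was -0.48. At an unadjusted p under 0.05, 12 were lower and 1 higher (12.6% and 11.4% of all tested genes). Every R library lay below every vehicle library in 12 and above in 0 (15.5% and 13.9% of all tested genes). Lymphoid, endothelial and erythroid or progenitor markers summed to at most 15.2, 7.89 and 5.68 FPKM in any library; Nkg7 was the only call among them, and the progenitor markers Mpo and Elane were at 0 in all 6. Bulk values do not say which cells made the mitotic transcripts, nor what share of the cells were the stromal cells that the label names. The part of the macrophage and stromal marker differences in the lower mitotic levels was not tested.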

How the data were processed

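Gene expression was measured by RNA-seq of total RNA in 3 R and 3 vehicle libraries. The deposited values are FPKM per gene, made by the authors; the submitters' processing notes name GRCm38 (mm10) and edgeR 3.18.1 without their roles, and the sources used here do not name the aligner, counter, annotation or strandedness. FPKM are not counts, so no count test was run. Of the 49328 gene IDs 49302 matched a symbol; 1 broken final line was left out. Summed exon lengths and coordinates (GRCm38) are from GENCODE, and promoter sequences from RefSeq. Depth was estimated from the smallest steps of FPKM times exon length, where 98.3% to 98.4% of low values came out within 0.02 of a whole read; it is an estimate, which rests on that annotation.

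Genes with 1 FPKM or more in 3 or more libraries were tested with limma 3.58.1 (R 4.3.3) on log2(FPKM + 1), two-sided, with a trended prior and Benjamini-Hochberg adjustment over all 11862 genes, and were called at an adjusted p under 0.05. With 3 against 3 libraries an exact permutation test cannot go below 0.1 and was not used. Full values are given in each class for up to 3 genes of smallest p and up to 2 of highest mean, and from each further list for up to 4 genes of smallest p; others were added after their values were seen, and 1 gene that the rule names is not reported here. The members and lists were chosen with earlier results of these data known, so their shares beside all tested genes are descriptions and not tests. The fit was also run on simulated reads with a fixed spread (dispersion 0.02) and no differences between libraries by length. The outcome is not given here and is no support for the calls. Same-numbered R and vehicle libraries had deviations correlated at 0.142, -0.0117 and -0.0309, so the numbers were not taken as pairs. The alternatives were other pseudocounts, filters, scalings and priors, a replicate block and the omission of each library.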

Additional observations from a re-analysis of the deposited data

How the results depend on the processing

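The median change of the members was -0.26 with a pseudocount of 5, where all changes shrink by construction, and moved by less than the replicate spread under the other 13 alternatives. The sign was negative in 49 of 50 members, or in all 50 without R replicate 2 or without vehicle replicate 2, and in 40 of the 41 kept with a filter at 5 FPKM. Without a filter, with more genes tested, 65 genes were called higher and 279 lower, and 3 members. With the replicate number as a block 7 members were called lower, and 299 genes higher and 457 lower; Bub1, Bub1b, Aurkb, Cenpe, Ect2 and Prc1 were then not called, which is not a smaller change. Leaving out single libraries gave 53 to 332 genes higher, 197 to 444 lower and 1 to 11 members lower, the fewest members without vehicle replicate 1. Bub3 ran from -0.047 (without R replicate 2) to 0.041 (without R replicate 3), and was also negative, at -0.036, without vehicle replicate 2. Over single members and alternatives, 600 outcomes stayed on their side of the threshold, 80 calls were lost, 9 were gained and 2 signs turned. The cause was not tested beyond the settings' own construction. Depth limits the lowest member most: the 142 reads of Spc24 alone allow a counting error of about 8.39%.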

Other observations

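Of 25 cell cycle inhibitors and checkpoint genes 1 rose and 1 fell, where 2.39% and 4.43% of all tested genes did, and the median change was 0.04. At an unadjusted p under 0.05, 10 were higher and 3 lower (11.4% and 12.6% of all tested genes). Every R library lay above every vehicle library in 9 and below in 5 (13.9% and 15.5% of all tested genes). Gadd45g, a stress-induced growth inhibitor, rose from 61, 88.3 and 81.8 FPKM in vehicle to 134, 144 and 113 FPKM in R (log2 change 0.76, SE 0.16, adjusted p = 0.036). Pkmyt1, a kinase that holds CDK1 inactive, fell (3.89, 5.74 and 4.5 FPKM in R, 7.77, 7.3 and 7.04 FPKM in vehicle; log2 change -0.56, SE 0.13, adjusted p = 0.048). Cdkn1c (p57), an inhibitor of cyclin-dependent kinases, had 6.83, 2.65 and 3.09 FPKM in R and 0.718, 0.811 and 1.59 FPKM in vehicle, without overlap, but missed the threshold (adjusted p = 0.053). The damage kinase Chek1 had a change of -0.52, SE 0.14 and did not pass (adjusted p = 0.075). Cdkn1a (p21), likewise an inhibitor of cyclin-dependent kinases, had a change of 0.04 (adjusted p = 0.87). It was named after its values were seen and does not stand for the list. Ccng1 and Mdm2 had changes of 0.42 and 0.25, and Sesn1 and Zmat3 of -0.06 and 0.1. These too were named after their values were seen and did not pass (adjusted p = 0.094, 0.2, 0.85 and 0.44). The same holds for the other listed inhibitors of cyclin-dependent kinases. Cdkn2a and Cdkn2b had changes of 0.67 and 0.6 (adjusted p = 0.13 and 0.16). Cdkn1b, Cdkn2c and Cdkn2d had changes of 0.04, -0.14 and -0.18 (adjusted p = 0.88, 0.4 and 0.66).

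Cyclins and kinases of the G1 phase, listed together with Cdc25a and Myc, had a median change of -0.07. In limma 0 of 10 passed, with 1 lower and 1 higher at an unadjusted p under 0.05 (12.6% and 11.4% of all tested genes). Ccnd2, a D-type cyclin, had 32.5, 43.1 and 55.4 FPKM in R and 25.3, 29.7 and 23.3 FPKM in vehicle, without overlap (log2 change 0.7, SE 0.19, adjusted p = 0.078). Ccnd1 had 96.6, 142 and 156 FPKM in R and 90.5, 88.7 and 110 FPKM in vehicle, where R replicate 1 lay among the vehicle libraries (adjusted p = 0.23). Their kinase partner Cdk6 and the S phase kinase Cdk2 had changes of -0.47 and -0.24 (adjusted p = 0.1 and 0.24).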
